A study of Sus scrofa with 6 samples.

Results

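ZP2, ZP3 and ZP4 encode the glycoproteins of the pig egg coat, and each was measured by 1 probe set on Affymetrix porcine arrays. The 3 probe sets were every one whose single gene symbol in the platform's annotation was ZP2, ZP3 or ZP4, out of 23999 non-control probe sets, of which 10069 carried 1 symbol. The same annotation pairs them with the RefSeq transcripts NM_213848 for ZP2, NM_213893 for ZP3 and NM_214045 for ZP4. The oocytes came from adult females (sows, described in the labels as developmentally competent) or prepubertal females (gilts, described as incompetent), with 3 biological replicates in each group. All oocytes were drawn from follicles of 2 to 6 mm, matured in culture for 42 to 44 h, freed of cumulus cells with hyaluronidase and vortexing, and had a first polar body, the sign of metaphase II. Neither the breed nor the number of oocytes or animals behind an array is stated in the labels, and no genetic change or further treatment separates the groups. The comparison asks whether mature eggs that differ in developmental competence also differ in the mRNA of their coat proteins.

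The zona pellucida is the extracellular coat that a growing oocyte lays down around itself. It binds sperm, helps to block further sperm after fertilization, and shields the early embryo. Its proteins share a ZP domain, through which they assemble into filaments after a protease of the furin type has cut off the membrane anchor. The pig coat is built from ZP2, ZP3 and ZP4, also named ZPA, ZPC and ZPB. ZP2 is cut by the cortical granule protease ovastacin once the egg is fertilized. ZP3 is a structural partner in the filaments, and in the pig ZP3 and ZP4 together form the complex to which sperm bind.

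None of the egg coat genes differed between the groups past an adjusted p of 0.05 in limma, where 0.475% of the 12000 tested probe sets did. All 3 were bright on every array, with ZP4 above ZP2 and ZP2 above ZP3 on 6 of 6 arrays. Of the 3 ratios between the genes, that of ZP2 to ZP3 differed most. Within each array, ZP2 signal stood higher over ZP3 signal in all prepubertal samples than in any adult sample, 1.305-fold on average. The exact permutation p of this ratio was 0.1, 2-sided, the smallest that 3 arrays against 3 can give, and 0.2 adjusted over the 3 ratios. Such separation was frequent: ratios of ZP2 to other tested probe sets separated the groups for 29.0% of them, 28.2% with the prepubertal ratio higher. The deposited arrays were not at a common level, so the egg coat genes are given on 2 scales, the deposited one and the one reached by quantile normalization, which forces the same distribution of signal on all arrays.

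ZP4 was the brightest of the egg coat probe sets. Its MAS5 signal, the array software's linear brightness per probe set, was 2496, 2455 and 2957 on the adult arrays and 2637, 2422 and 2574 on the prepubertal arrays, here and below in the order of replicates 1, 2 and 3. The prepubertal values lay inside the adult range apart from replicate 2, the lowest of the 6, so the groups overlapped. The adult mean was 2636 ± 279 and the prepubertal mean 2544 ± 111 (SD, n = 3 arrays each). The difference on the log2(signal + 16) scale was −0.05 ± 0.16 (SE; 95% interval −0.39 to 0.29), with a limma adjusted p of 0.915. ZP4 also had little spread between replicates: 96.3% of tested probe sets had a larger SD within groups on the same log2 scale. Once quantile normalized the share was 71.8% for ZP4 and 94.5% for ZP3, so the gene with the smallest spread changed with the scaling.

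ZP2 had signals of 1583, 1434 and 1686 on the adult arrays and of 1869, 1415 and 1686 on the prepubertal arrays. Both the highest and the lowest of the 6 values were prepubertal. The means were 1568 ± 127 and 1657 ± 229 (SD, n = 3 arrays each). The log2 difference was 0.07 ± 0.18 (SE; 95% interval −0.31 to 0.46; limma adjusted p = 0.878), and it was −0.02 without prepubertal replicate 1.

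ZP3 was the dimmest of them. Its signals were 675, 436 and 518 on the adult arrays and 468, 383 and 435 on the prepubertal arrays. Adult replicate 1 stood well above the others, while adult replicate 2 lay among the prepubertal values. The means were 543 ± 122 in adult and 429 ± 42.9 in prepubertal oocytes (SD, n = 3 arrays each), with a log2 difference of −0.31 ± 0.22 (SE; 95% interval −0.78 to 0.15; limma adjusted p = 0.530). Without adult replicate 1 the difference was −0.15. These intervals leave room for ZP3 signal in prepubertal oocytes from 0.583 to 1.11 times the adult one, for ZP2 from 0.807 to 1.37 times and for ZP4 from 0.765 to 1.23 times.

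**Figure D1:**
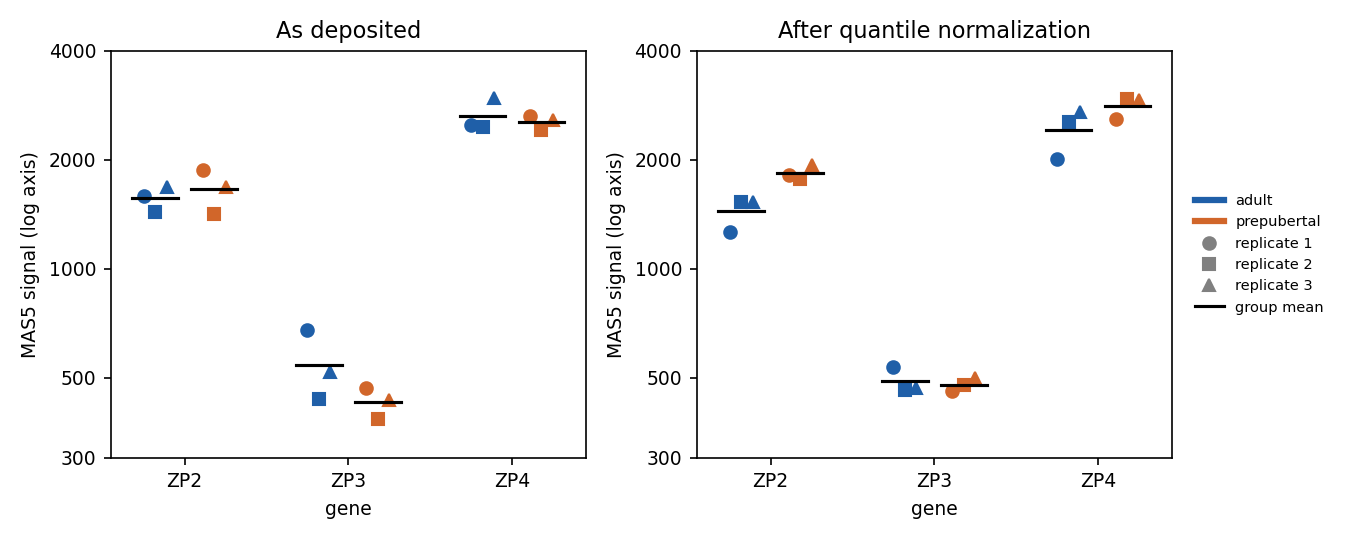
MAS5 signal (log axis) of ZP2, ZP3 and ZP4 on each array, as deposited on the left and after quantile normalization on the right; points are arrays, symbols the replicate number, colours the group and bars the group means. As deposited the groups overlap for every gene, and after quantile normalization the 3 prepubertal ZP2 values (1768 to 1932) all lie above the 3 adult ones (1265 to 1532).

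The arrays differed in level, with overlap between the groups. The 2% trimmed mean signal was 123 to 161 on adult and 106 to 132 on prepubertal arrays (exact permutation p = 0.2), and 25.2% of all tested probe sets had higher values in prepubertal oocytes as deposited. The median log2 difference of the 12000 tested probe sets was −0.20 on the deposited scale, and quantile normalization moved it to −0.01. The ratio of 3′ to 5′ GAPDH control signal, a measure of how far amplified RNA is shortened, was 23.4 to 120 on adult and 9.86 to 29.3 on prepubertal arrays (exact permutation p = 0.2), and its part in the results was not tested. The same ratio for actin was 555 to 4841 on adult and 335 to 4181 on prepubertal arrays (exact permutation p = 0.9). Bacterial control RNAs added at hybridization ran the other way, at a geometric mean signal of 1726 to 1881 on adult and 1899 to 2306 on prepubertal arrays (exact permutation p = 0.1). RNA was captured by its poly(A) tail, so fewer oocytes on an array, less mRNA per oocyte and shorter tails cannot be told apart in a lower signal. Against the median as deposited, ZP2 lay above 81.7% of tested probe sets in its difference, ZP4 above 69.7% and ZP3 above 33.5%.

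After quantile normalization ZP2 had signals of 1265, 1528 and 1532 on the adult arrays and of 1813, 1768 and 1932 on the prepubertal arrays. The groups then no longer overlapped, as was the case for 16.3% of tested probe sets, and for 7.54% with the prepubertal values higher. The log2 difference was 0.35 ± 0.11 (SE; 95% interval 0.10 to 0.60), a 1.28-fold higher value. Its unadjusted limma p was 0.00942 and its adjusted p 0.290, so it did not pass, where 0.117% of probe sets did. At an unadjusted p under 0.05, 5.05% of tested probe sets were higher in prepubertal oocytes in this setting. Without adult replicate 1, the lowest, the difference was 0.26.

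ZP4 followed ZP2 in this setting, with overlapping groups. Its signals were 2014, 2543 and 2702 on the adult arrays and 2592, 2948 and 2923 on the prepubertal arrays. The log2 difference was 0.23 ± 0.12 (SE; 95% interval −0.03 to 0.49; limma adjusted p = 0.514), opposite in sign to the deposited one, and 0.10 without adult replicate 1. ZP3 had nearly equal means, 488 ± 41.2 in adult and 478 ± 19.6 in prepubertal oocytes (SD, n = 3 arrays each; log2 difference −0.03, 95% interval −0.32 to 0.27, limma adjusted p = 0.961). The gap between ZP2 and ZP3 thus had about the same size in both settings, while the position of the genes around 0 moved with the scaling. Scaling moves both genes of an array together, so the likeness of the gaps is no separate support.

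**Figure D2:**
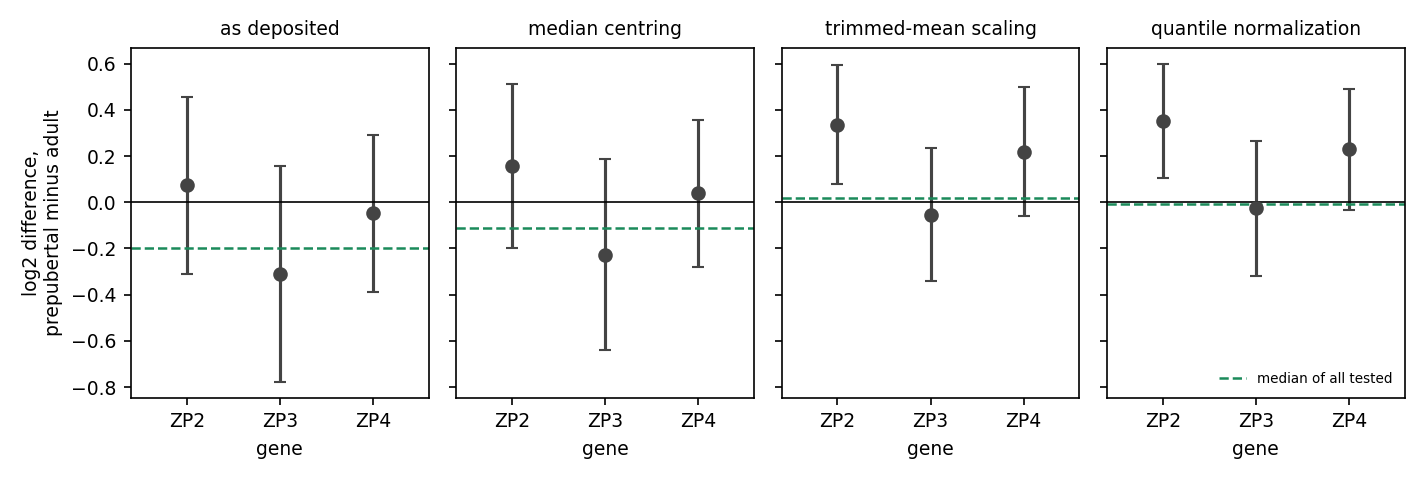
Log2 difference, prepubertal minus adult, of ZP2, ZP3 and ZP4 in 4 panels, 1 for each scaling of the arrays; points are limma estimates, bars their 95% intervals, and the dashed line the median of all tested probe sets. ZP2 runs from 0.07 as deposited to 0.35 after quantile normalization and ZP3 from −0.31 to −0.03. The order ZP2 above ZP4 above ZP3 is the same in each panel. Median centring shifts all log2 values of an array alike and cannot change this order, and trimmed-mean scaling hardly can.

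Ranks within an array do not depend on how the array was scaled. They are ranks of signal, since probes differ in how well they bind, and do not order genes by transcript number. ZP4 ranked 650, 494 and 451 among the 23999 non-control probe sets on the adult arrays and 480, 398 and 403 on the prepubertal arrays. All these ranks were within the brightest 2.71% of each array, and the groups overlapped.

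ZP2 ranked 1049, 880 and 878 on the adult arrays and 731, 753 and 682 on the prepubertal arrays. Every prepubertal array placed ZP2 higher than every adult array, within its brightest 3.14%. Quantile normalization sets each value from its rank within the array. The ranks therefore repeat the separation seen after quantile normalization and are not a further result. Ranks separated the groups in this way for 16.3% of all tested probe sets, and with the higher placing in prepubertal oocytes for 7.53% of all tested. The mean percentile, the share of probe sets at or below the gene, was 96.1 ± 0.409 for adult oocytes and 97.0 ± 0.151 for prepubertal ones (SD, n = 3 arrays each; exact permutation p = 0.1, adjusted over the 3 genes 0.3).

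ZP3 ranked 2055, 2274 and 2256 on the adult arrays and 2285, 2223 and 2162 on the prepubertal arrays. Its groups overlapped, the best placing being adult and the lowest prepubertal. The percentiles were 90.7 ± 0.256 in prepubertal and 90.9 ± 0.507 in adult oocytes (exact permutation p = 0.8, 2-sided, n = 3 arrays each; 0.8 over the 3 genes). For ZP4 they were 98.2 ± 0.192 and 97.8 ± 0.436 (exact permutation p = 0.2; 0.3 over the 3 genes). With 1 probe set per gene symbol, 6765 genes in all, ZP4 ranked between 221 and 352, ZP2 between 371 and 560 and ZP3 between 1021 and 1125.

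**Figure D3:**
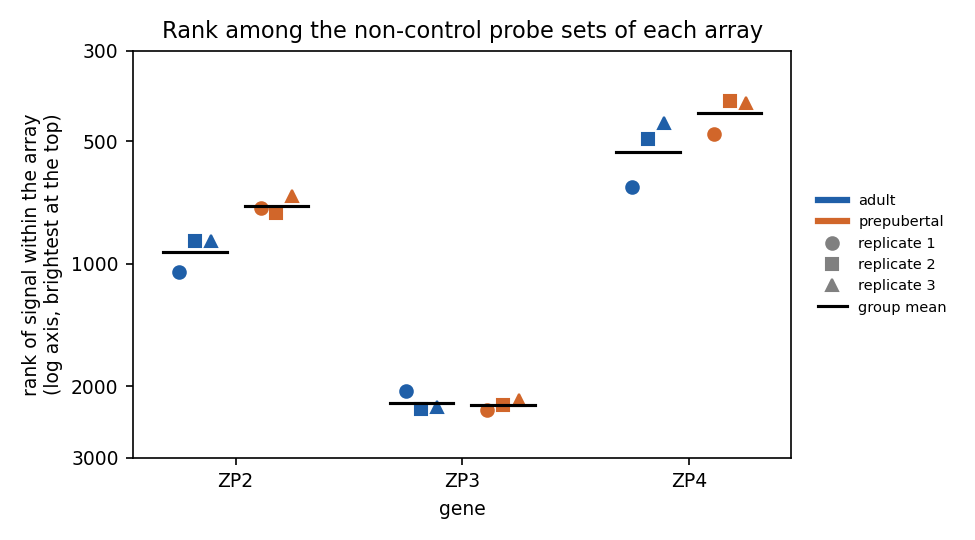
Rank of the ZP2, ZP3 and ZP4 signal among the 23999 non-control probe sets of each array, on a log axis with the brightest at the top; points are arrays, symbols the replicate number and bars the group means. For ZP2 the prepubertal ranks (682 to 753) all lie above the adult ones (878 to 1049), and for ZP3 and ZP4 the groups overlap.

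The ratio of a pair of probe sets on the same array cancels the level of that array. Its size depends on the probes as well as on the transcripts, so only its change between arrays was compared. The ZP2 to ZP3 signal ratio was 2.35, 3.29 and 3.26 on the adult arrays and 3.99, 3.69 and 3.88 on the prepubertal arrays. All prepubertal ratios were above all adult ones, and adult replicate 1 was far below the rest. On the log2 scale the mean ratio was 1.52 ± 0.27 for adult oocytes and 1.91 ± 0.06 for prepubertal ones (SD, n = 3 arrays each), a difference of 0.38 (exact permutation p = 0.1; 0.2 adjusted over the 3 ratios). Without adult replicate 1 the difference was 0.23, and the groups still did not overlap (exact permutation p = 0.1). As background, the ratio of ZP2 to another tested probe set separated the groups for 29.0% of them, 28.2% with the prepubertal ratio higher. For ratios of ZP3 the groups were separate for 15.6% of the other probe sets and for those of ZP4 for 16.2%.

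The ZP4 to ZP3 ratio had overlapping groups. It was 3.70, 5.64 and 5.71 on the adult arrays and 5.63, 6.32 and 5.92 on the prepubertal arrays. Adult replicate 1 was again the low one, and the log2 difference of 0.26 (exact permutation p = 0.2; 0.2 over the 3 ratios) was 0.06 without it.

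The ZP4 to ZP2 ratio varied least. It was 1.58, 1.71 and 1.75 on the adult arrays and 1.41, 1.71 and 1.53 on the prepubertal arrays. The SD of its log2 value over all 6 arrays was 0.12, against 0.27 for each of the other ratios. The group means differed by −0.12 on the log2 scale (exact permutation p = 0.2; 0.2 over the 3 ratios), and by −0.05 without prepubertal replicate 1.

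**Figure D4:**
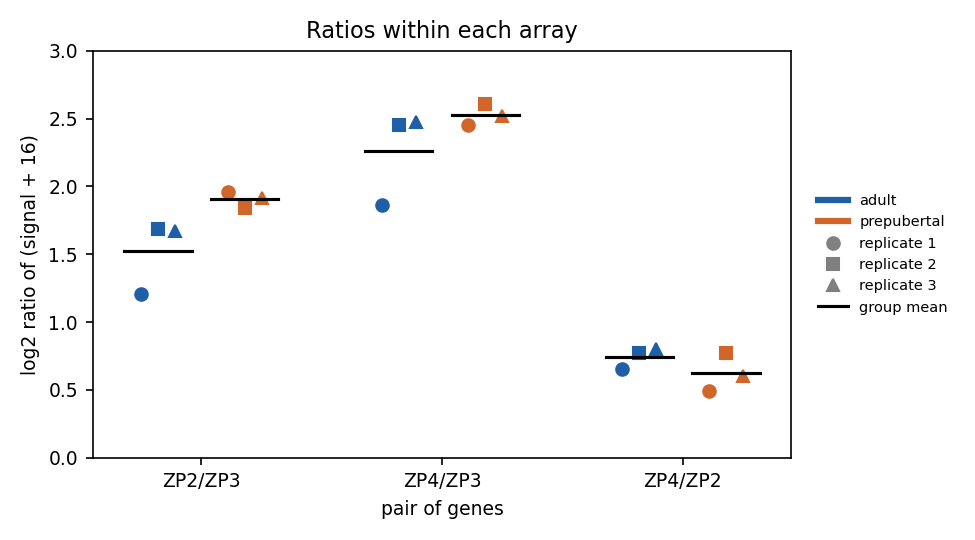
Log2 ratio of (signal + 16) between pairs of egg coat genes within each array; points are arrays, symbols the replicate number, colours the group and bars the group means. The ZP2 to ZP3 ratio is 1.84 to 1.96 on prepubertal and 1.21 to 1.68 on adult arrays, and adult replicate 1 is the lowest adult array in all 3 ratios.

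The oocyte identity of the samples was checked on its markers. Of 15 oocyte genes 9 were on the array under these symbols, the egg coat genes among them. KPNA7, an importin of oocytes, had signals of 12970 to 15050 and H1FOO, the oocyte linker histone, 4167 to 5304, while DDX4, a germ cell helicase, was near background at 1.65 to 10.3. POU5F1, a pluripotency factor of germ cells, did not overlap between the groups, at 186 to 255 on adult and 117 to 166 on prepubertal arrays (log2 difference −0.61, limma adjusted p = 0.246; −0.36 and 0.449 once quantile normalized). As deposited, the groups did not overlap for 18.9% of all tested probe sets, and for 17.1% with the prepubertal values lower. Of 18 cumulus and granulosa markers on the array, 17 stayed under a signal of 100 on every array, and the exception was INHBA, an activin subunit, at 90.3 to 135. FSHR was at 0.907 to 6.04 and STAR at 0.653 to 7.29, while INHA was at 23.9 to 61.65 and SERPINE2 at 44.8 to 81.4. For 8 of the 18 the brightest probe set lay under the array median on all 6 arrays. The summed signal of the 18 was 355 to 470 on adult and 362 to 420 on prepubertal arrays. Of the 4 blood and immune markers on the array, HBB, the beta globin, was the bright one at 127 to 428, and its values overlapped between groups as did the sums (284 to 480 on adult and 156 to 393 on prepubertal arrays). The 6 theca and stroma markers on the array summed to 83.9 to 146 on adult and 72.1 to 111 on prepubertal arrays. Among them COL3A1, a fibrillar collagen, had 26.8 to 50.6 and 5.37 to 24.9, without overlap, as for the 17.1% of probe sets above (limma adjusted p = 0.214). The 5 endothelial markers summed to 113 to 125 and 92.0 to 130. The part of these cells in the results was not tested.

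The oocyte growth factors served as references. GDF9, which drives growth of the follicle with BMP15, ranked between 2451 and 3545 and BMP15 between 3378 and 4448, so all 3 egg coat probe sets gave brighter signal than either on every array. As deposited, the log2 differences were −0.58 ± 0.27 for GDF9 and 0.18 ± 0.23 for BMP15 (SE; limma adjusted p = 0.327 and 0.740). After quantile normalization they were −0.31 and 0.42 (adjusted p = 0.650 and 0.389). BMP15 thus had a higher value in prepubertal oocytes in both settings, as ZP2 did, and GDF9 a lower one, without passing the test.

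Genes that act on the egg coat were read from 5 lists of 76 gene symbols in all. Of these 41 were on the array under a single symbol and 30 were tested. None of the 30 passed the adjusted threshold in limma, and 5 had an unadjusted p under 0.05, as did 14.7% of all tested probe sets. As deposited 26 of the 30 had lower values in prepubertal oocytes, and 17 had them once quantile normalized, against 74.8% and 51.1% of all tested probe sets.

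Of 13 regulators of coat genes only TAF4B, an oocyte cofactor of the general transcription machinery, was tested. Its signal was 225 ± 74.1 in adult and 186 ± 32.5 in prepubertal oocytes (SD, n = 3 arrays each; limma adjusted p = 0.706). The log2 difference was −0.22 as deposited and turned to 0.05 with quantile normalization (adjusted p = 0.958). FIGLA and NOBOX, the oocyte transcription factors best known to switch on ZP genes, have no probe set under these symbols in the annotation and were not analysed here.

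The list of folding, cleavage and secretion had 7 of 13 genes tested: PDIA4, PDIA3, ERO1A, HSPA5, CALR, PDIA6 and CANX. The furin-type proteases FURIN, PCSK5, PCSK6 and PCSK7 were not among them, so cleavage was not covered. Values were below the adult ones for all 7 on the deposited scale and for 6 on the quantile normalized one. The median log2 difference was −0.40 and −0.21, against −0.20 and −0.01 over all tested probe sets. Some of these genes had further probe sets. Counting every tested one, 10 were lower and 1 was higher as deposited. PDIA4, a disulfide isomerase of the endoplasmic reticulum, had 2263 ± 381 in adult and 1617 ± 300.5 in prepubertal oocytes (SD, n = 3 arrays each), with adult values from 1940 to 2683 and prepubertal ones from 1325 to 1926. Its groups did not overlap, as for 18.9% of tested probe sets and for 17.1% with the prepubertal values lower, and the log2 difference was −0.48 (limma adjusted p = 0.258), or −0.19 once quantile normalized (adjusted p = 0.514). PDIA3, a disulfide isomerase that serves glycoproteins, had 254 ± 30.7 and 185 ± 82.2 (log2 difference −0.50, limma adjusted p = 0.379; −0.26 and 0.674 once quantile normalized). The brightest member was PDIA6, another isomerase, with means of 8691 and 7569 and a log2 difference of −0.20, or −0.12 once quantile normalized.

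In the glycosylation list 12 of 20 genes were tested, with a median log2 difference of −0.29 on the deposited scale and of −0.06 once quantile normalized. The smallest p-values were those of the catalytic subunits of oligosaccharyltransferase, which attaches N-glycans to new proteins in the endoplasmic reticulum. STT3B had 1369 ± 307 in adult and 778 ± 265 in prepubertal oocytes (SD, n = 3 arrays each), a log2 difference of −0.83 ± 0.23 (SE; limma adjusted p = 0.119) that was −0.54 after quantile normalization (adjusted p = 0.192). Adult values were 1092 to 1699 and prepubertal ones 601 to 1082, so the groups were separate by a narrow margin. STT3A had 365 ± 19.2 and 245 ± 51.9 (log2 difference −0.56, limma adjusted p = 0.268), also without overlap. Quantile normalization brought its difference to −0.30 (limma adjusted p = 0.509). Groups separate as deposited, with the prepubertal values lower, were found for 17.1% of all tested probe sets.

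Of 19 gene symbols for sperm binding and fusion at the oocyte and for cortical granule release, 8 were tested, with medians of −0.17 and 0.05. The symbols IZUMO1R and FOLR4 on this list stand for the same gene. VAMP3, a membrane fusion protein of vesicles, had 1759 ± 265 in adult and 1266 ± 52.8 in prepubertal oocytes (SD, n = 3 arrays each; log2 difference −0.46, limma adjusted p = 0.268). After quantile normalization its difference was −0.17. SYT1, a calcium sensor of vesicle release, lay near background at 14.8 to 26.8 on adult and 8.18 to 14.9 on prepubertal arrays (log2 difference −0.44, limma adjusted p = 0.513; −0.36 once quantile normalized). All its prepubertal values were under the median signal of the prepubertal arrays (16.4 to 17.7). ASTL, the gene of ovastacin, and IZUMO1R, the gene of the egg's sperm receptor Juno, have no probe set under these symbols and were not analysed here.

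Other proteins with a ZP domain were dim. Of 11 genes 4 were on the array, and 2 passed the filter on low values. ENG, the endothelial coreceptor endoglin, had 31.2 ± 1.28 in adult and 11.8 ± 11.6 in prepubertal oocytes (SD, n = 3 arrays each; log2 difference −0.84, limma adjusted p = 0.243; −0.76 and 0.414 once quantile normalized). Its prepubertal values ran from 1.95 to 24.65, with a mean under the median signal of the prepubertal arrays (16.4 to 17.7). Its adult values, 29.8 to 32.3, carried it past the filter, so its difference is a description only. DMBT1, a mucosal scavenger receptor, had 18.9 ± 12.7 and 25.1 ± 6.80 (log2 difference 0.30, limma adjusted p = 0.692; 0.39 once quantile normalized). Both lay far below the egg coat probe sets in signal.

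The 2 nearest protein-coding genes on each side of ZP2, ZP3 and ZP4 in RefSeq's table for Sscrofa11.1 were looked up as local context. Of these 12 neighbours 4 were on the array under 1 symbol, none of them next to ZP3. ANKS4B, next to ZP2, had signals of 59.7 to 114, and LYRM1, farther off on its other side, 11.5 to 31.7. MTR, near ZP4, had 19.3 to 41.7 and RYR2, next to ZP4, 2.83 to 15.3. The best rank of any of the 4 on any array was 4940, so all were far dimmer than the egg coat probe sets, and none passed limma's test without a filter (lowest adjusted p 0.460).

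Finally, the genes whose log2 values followed each egg coat gene most closely over the 6 quantile normalized arrays were listed, among 4599 other genes. Likeness was Pearson's r over 6 arrays of 2 groups, a description that carries no test, since high values are frequent with so few arrays. For ZP2 they were ANKFY1, an endosomal protein (r = 0.990), FAM84A (r = 0.988) and LANCL1 (r = 0.986), and 79 genes had r above 0.9. For ZP4 they were DMRT1, a transcription factor of germ cells (r = 0.995), MKRN1, a ubiquitin ligase (r = 0.987), and SOD1, the cytosolic superoxide dismutase (r = 0.985), with 76 above 0.9. For ZP3 they were DDC, dopa decarboxylase (r = 0.992), GLOD4 (r = 0.977) and LTF, lactoferrin (r = 0.974), with 10 above 0.9. Among themselves, ZP2 and ZP4 had r = 0.872 after quantile normalization and 0.615 as deposited. ZP3 had −0.493 with ZP2 and −0.587 with ZP4 after quantile normalization but 0.282 and 0.248 as deposited, so its sign depended on the scaling.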

How the data were processed

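The authors deposited a table of signal, linear and never negative, computed with MAS5 per the submitters' processing notes. Its version and target level are not stated in the labels. Oligo-dT beads captured the poly(A) RNA, which was amplified in 2 cycles, per the labels' protocols. Of 24123 probe sets, 124 controls were left out. The number of arrays limits the precision, and the p-values cover only the spread between arrays, part of which may be technical.

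Groups were compared on log2(signal + 16), prepubertal minus adult, with limma 3.58.1 in R 4.3.3 (lmFit, eBayes with an intensity trend, 2-sided, Benjamini-Hochberg over 12000 probe sets whose mean was at or above the median). Adding 16 understates folds of dim genes. Adjusted p-values over all probe sets come from limma, those over the 3 egg coat genes or ratios from the permutation tests. The limma fit was tested on simulated data with independent noise, SDs shuffled over probe sets and no difference in level between arrays. That run therefore does not cover the level differences of the real arrays. Ratios, percentiles and array measures were compared with exact permutation tests. Symbols came from the platform's annotation. For 9961 probe sets the Entrez identifier was found in RefSeq's Sscrofa11.1 table and the symbol given there was used, whether or not it differed. No coordinates are printed, because the values carry no genome build. For lists, the brightest tested probe set stood for its gene.

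The rule for named genes took the egg coat genes, in each list the pair of members with the lowest unadjusted p and any member past the threshold, the 3 genes most like each egg coat gene, and GDF9 and BMP15. PDIA6 and the marker and neighbour genes were chosen after their values were seen. Members and lists were chosen with earlier results of these data known. Replicate numbers were not taken as a pairing in the main test. As deposited, same-numbered arrays' deviations from their group means correlated at 0.11, 0.0584 and 0.0294. Adult and prepubertal arrays of different numbers had −0.0776 to 0.0245. A pairing was accepted only if all same-numbered values exceeded 0.1. That cut cannot show that the arrays were unpaired, so the replicate block was run as an alternative. Alternatives were other constants, filters, scalings, variance models, a replicate block and leaving out each array.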

Additional observations from a re-analysis of the deposited data

How the results depend on the processing

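No egg coat gene passed an adjusted p of 0.05 under any of the 23 alternatives run for the limma test (lowest adjusted p 0.187 for ZP2, 0.205 for ZP3 and 0.309 for ZP4). ZP2 kept a higher value in 22 of them and ZP3 a lower one in 21. These counts include settings that could not change the sign. The filters, the fit without a trend and the replicate block leave the difference of a probe set as it is. ZP4 changed sign in 11: its log2 difference was 0.23 after quantile normalization, with or without the replicate block, 0.22 with trimmed-mean scaling and 0.04 with median centring. Leaving out each array gave −0.02 to 0.18 for ZP2, −0.45 to −0.15 for ZP3 and −0.10 to 0.04 for ZP4 as deposited. After quantile normalization it gave 0.26 to 0.40, −0.07 to 0.04 (0.00 without prepubertal replicate 1) and 0.10 to 0.31 (0.27 without adult replicate 2, 0.29 without prepubertal replicate 1 and 0.20 without prepubertal replicate 2 or 3). The ratios between the genes kept their direction under all 10 alternatives, although the replicate block could not change their differences. Other constants and quantile normalization hardly moved them (0.37 to 0.39 for ZP2 to ZP3). The leave-one-out ranges were 0.23 to 0.46 for ZP2 to ZP3, 0.06 to 0.37 for ZP4 to ZP3 and −0.19 to −0.05 for ZP4 to ZP2. Leaving out each array, the percentile difference ranged from 0.654 to 1.010 points for ZP2, from 0.190 to 0.604 for ZP4 and from −0.283 to 0.174 for ZP3, whose sign turned without adult replicate 1 (0.174) or prepubertal replicate 1 (0.0104). Ranked among probe sets with 1 symbol, and with 1 probe set per gene, the percentile difference was 1.10 and 1.58 for ZP2 and 0.513 and 0.729 for ZP4, against 0.890 and 0.436 among all probe sets. No second probe set of an egg coat gene existed to exchange.

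Over all probe sets limma called 57 as deposited. It called 15 with a constant of 1, 1 without a filter, 173 among the 6000 brightest probe sets, 14 after quantile normalization, 7 with median centring, 20 with trimmed-mean scaling, 1 without a trend and 1259 with array weights. With the replicate number as a block it called 918 as deposited and 33 after quantile normalization, and the block left the difference of ZP3 at −0.31 (adjusted p = 0.205). Leaving out each array gave 3 to 617 calls as deposited and 0 to 195 after quantile normalization, where the 0 came without adult replicate 2 (930 at an unadjusted p under 0.05 in limma) and 6 came without prepubertal replicate 2. The cause of these changes was not tested. The share of higher calls was 4 of 57 as deposited, 3 of 14 after quantile normalization and 4 of 20 with trimmed-mean scaling. Quantile normalization gave 10 of 33 with the replicate block and 106 of 195 without prepubertal replicate 1. The lists had 0 calls in limma under their 3 alternatives (5 members at an unadjusted p under 0.05 as deposited). With 3 arrays a group, an exact permutation p cannot fall below 0.1.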
